A study of Homo sapiens with 4 samples.

Results

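Gene expression in PC-3 cells carrying a short hairpin RNA against TNFRSF13B (shTNFRSF13B) was compared with that in PC-3 cells carrying the empty vector. All 17687 genes that a probe set with a listed symbol named were compared, out of the same 17687 genes on the series' 4 arrays, and no gene was picked by its level or ratio. PC-3 is an androgen-independent human prostate cancer line derived from a bone metastasis and lacks functional p53. The shTNFRSF13B cells received the hairpin in the lentiviral vector pLKO.1, and the empty vector cells received pLKO.1 alone. Both were grown in F-12 medium with serum and selected with puromycin as stable cells. The methods give a single target sequence, with no second hairpin and no hairpin of unrelated sequence. Each condition had 1 array, with no replicate, so no p-value or error between replicates is given for any gene. A difference of at least 2-fold in either direction (log2 ratio of 1) was the study's criterion for a significantly differentially expressed (SDE) gene, and it is used here as a size, not as a test.

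TNFRSF13B encodes TACI (CD267), a receptor of the tumour necrosis factor family that B cells use to bind the ligands BAFF and APRIL and that signals through TRAF proteins to NF-kappaB. It is known for its part in antibody class switching and for its mutations in common variable immunodeficiency. In epithelial tumour cells its role is less defined. The question put to the arrays was which pathways differ in prostate cancer cells when this receptor is silenced. In addition to the cell cycle and the interferon genes that dominate the comparison, the arrays report on amino acid supply, antigen display, inflammatory signals, growth factor receptors and the cell surface, and these are described below.

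The targeted gene was close to the limit of measurement. TNFRSF13B stood at a log2 value of 4.85 on the shTNFRSF13B array and 5.25 on the empty vector array, a log2 ratio of -0.40. A floor was set on each array at the 95th percentile of 349 olfactory receptor genes, most of which serve in the nose, although OR51E1 and OR51E2 are known in prostate. It lay at 4.98 for shTNFRSF13B and 4.92 for the empty vector (4.96 for shTNFRSF13B and 4.92 for the empty vector without these 2 genes), so TNFRSF13B was under the floor with shTNFRSF13B and above it with the empty vector. Its ratio was smaller than the standard deviation of the olfactory receptor ratios, 0.455, and these arrays do not resolve its knockdown. The study's own evidence for the knockdown was protein: by western blot it reported less TNFRSF13B in PC-3 cells with the hairpin than with the empty vector. The ligand genes TNFSF13B (BAFF, 3.97 with shTNFRSF13B and 4.37 with the empty vector) and TNFSF13 (APRIL, 6.40 with shTNFRSF13B and 6.47 with the empty vector) differed little, and the BAFF value was dim on both.

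The cells carried the markers of PC-3. Of 12 measured PC-3 markers, 11 were above the floor on both arrays, with medians of 12.94 on each, and only LCN2 was dim. VIM, the intermediate filament of mesenchymal cells, stood at 14.76 with shTNFRSF13B and 15.47 with the empty vector. In 22Rv1 cells VIM was lower than in PC-3 cells (6.50 with shTNFRSF13B, 5.90 with the empty vector). KRT8 was higher in 22Rv1 cells (16.29 with shTNFRSF13B, 16.65 with the empty vector) than in PC-3 cells (14.43 with shTNFRSF13B, 13.33 with the empty vector). Of 53 markers of other cells in 8 lists, 23 were dim on both PC-3 arrays, 9 on 1 array and 21 on none. The dim ones included the B cell markers MS4A1 and CR2, the T cell marker CD3D, the endothelial markers PECAM1 and CDH5 and the basal keratins KRT5 and KRT14, whereas CD79A of B cells (7.03 with shTNFRSF13B, 6.84 with the empty vector), GZMB of cytotoxic cells (8.10 with shTNFRSF13B, 7.76 with the empty vector), CD68 of macrophages (10.25 with shTNFRSF13B, 11.06 with the empty vector) and COL1A2 of fibroblasts (log2 ratio 0.94) were above the floor on both. Other members of these lists were also above the floor on both, among them the endothelial VWF and CLDN5 and the T cell CD3E. The basal DST (11.39 with shTNFRSF13B, 11.33 with the empty vector) and the luminal HOXB13 (12.40 with shTNFRSF13B, 12.23 with the empty vector) were bright. Of the 53, 4 had a log2 ratio of 1 or more and none of -1 or less. Of these, 3 stood among the 10 androgen-responsive luminal prostate markers: TMPRSS2 (7.17 with shTNFRSF13B, 5.87 with the empty vector), STEAP2 (10.75 with shTNFRSF13B, 9.63 with the empty vector) and ACP3 (5.06 with shTNFRSF13B and 3.87, dim, with the empty vector). The other was the myeloid LYZ (5.34 with shTNFRSF13B and 3.87, dim, with the empty vector). The summed log2 levels were furthest apart for the 10 luminal genes, at 69.0 with shTNFRSF13B and 64.4 with the empty vector, and next for 5 fibroblast genes, at 27.1 with shTNFRSF13B and 24.7 with the empty vector. Such sums grow with the number of genes in a list, so their order does not rank the lists gene for gene. In the other 6 lists the sums differed by less, as in the 9 B cell genes (44.1 with shTNFRSF13B, 44.3 with the empty vector). The part of these differences in the results below was not tested. In RNA from a whole culture, fewer cells of a kind and less RNA per cell cannot be told apart.

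In all, 1019 genes were at least 2-fold higher with shTNFRSF13B than with the empty vector (5.76% of the genes measured) and 829 were at least 2-fold lower (4.69%). The median log2 ratio over all genes was -0.0019, and the middle 50% of genes lay between -0.34 and 0.34. The study's own count of SDE genes in PC-3 cells was smaller than these counts, and the reason was not tested. Making the medians of both arrays equal subtracted 0.14 from every ratio and turned the balance round, with 789 genes higher and 1152 lower (40.6% of the genes past 2-fold higher, against 55.1% as deposited). Of the 349 olfactory receptor genes, 14 passed 2-fold (4.01%) and none passed 8-fold. Of 612 negative control probe sets on the array, 178 passed 2-fold (29.1%, 75 higher and 103 lower), with a standard deviation of 1.25 in their log2 ratio against 0.73 for named genes. Among them 21 passed 8-fold (3.43%, 10 higher and 11 lower), against 104 of the named genes (0.588%), and 40.4% of those with a mean level of 5 to 10 passed 2-fold. Ratios of this size were therefore found among features meant to report no transcript, and neither a 2-fold nor an 8-fold difference in a single gene is shown here to lie beyond such noise. Among the genes past 2-fold, 71 higher and 55 lower ones were under the floor on both arrays, and no fold is given for such genes. Where a gene was under the floor on 1 array only, the fold was taken against the floor and is given as "at least".

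The cell cycle and interferon programmes set the scale. In G2/M and mitosis, 101 of 112 measured genes had a ratio of -1 or less (median log2 ratio -1.78), as did 64 of 90 G1/S and replication genes (median -1.33). In the interferon-stimulated list, 69 of 79 genes had a ratio of 1 or more (median 3.56). Outside these 3 lists and the histone genes, 949 genes were higher and 631 lower. Each list or family count below is to be set against the shares over all genes, 5.76% at least 2-fold higher and 4.69% lower. The plot of ratio against level shows where 3 of the groups described below lay in this spread.

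**Figure D1:**
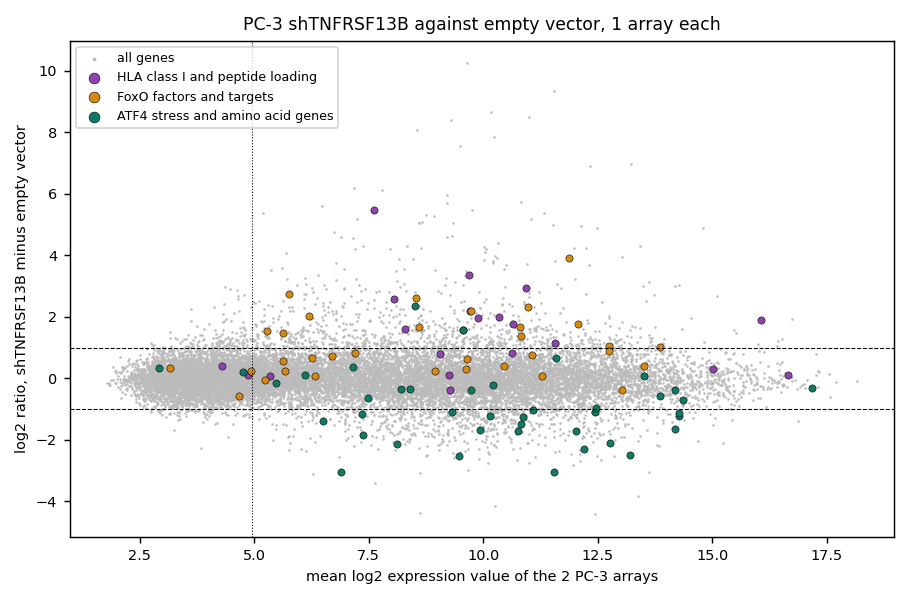
The log2 ratio (shTNFRSF13B minus empty vector) of each of 17687 genes is plotted against its mean log2 value on both PC-3 arrays. Dashed lines mark 2-fold, the dotted line marks the mean of both arrays' floors, and coloured points are the HLA class I (purple), FoxO (orange) and ATF4 (green) genes. Most ATF4 genes lie under the zero line and most HLA class I and FoxO genes above it, over the whole range of levels.

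The genes of amino acid supply were the largest group, outside the cell cycle, that was lower with shTNFRSF13B. ATF4 is a transcription factor whose protein is made when amino acids run short or when unfolded protein builds up in the endoplasmic reticulum. It switches on enzymes and transporters that refill the amino acid pool, together with brakes on growth. Of 41 measured genes of this response 22 were at least 2-fold lower with shTNFRSF13B (53.7%, against 4.69% of all genes) and 2 were higher, and 33 of 41 had a ratio under 0. The median log2 ratio was -1.10, against -0.0019 for all genes.

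ATF4 binds a composite element with C/EBP partners, and the promoters that hold its core letters among the lower genes are shown to place it in the genes described. The letters TGATGNAA were searched on both strands in the RefSeq promoters (GRCh38.p14, 250 bases before to 50 after the gene start). They were present in 2.52% of the 14250 promoters of measured genes, in 7 of 33 promoters of the list (21.2%) and in 4 of the 18 promoters of its lower members. None of these 4 matches overlapped another of the searched motifs. The share in the lower members, 22.2%, was near that of the whole list. Over all genes the letters were present in 2.91% of 825 promoters of genes at least 2-fold higher and in 3.41% of 675 promoters of genes at least 2-fold lower. Both shares were near that of all promoters, so the letters did not mark the lower genes as a whole. The windows run 5′ to 3′ on the gene's strand, with the matched letters, or their reverse complement, in capitals. They come from chr15:40953232-40953299 (+ strand, CHAC1), chr7:97872439-97872506 (- strand, ASNS), chr13:29595644-29595711 (- strand, SLC7A1) and chr6:150866327-150866394 (+ strand, MTHFD1L).
CHAC1: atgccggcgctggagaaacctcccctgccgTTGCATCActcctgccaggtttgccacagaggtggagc
ASNS: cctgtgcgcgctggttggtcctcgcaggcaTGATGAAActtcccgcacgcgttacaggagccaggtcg
SLC7A1: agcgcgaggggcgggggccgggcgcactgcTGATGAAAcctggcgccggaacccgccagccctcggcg
MTHFD1L: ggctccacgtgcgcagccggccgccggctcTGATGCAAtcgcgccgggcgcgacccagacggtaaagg
A match is a run of letters and not a measured binding site.

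Among the transcription factors, 3 of 7 were at least 2-fold lower. ATF4 itself stood at 11.89 with shTNFRSF13B and 13.00 with the empty vector (2.16-fold lower). Its dimer partner CEBPG stood at 10.08 with shTNFRSF13B and 11.57 with the empty vector (2.80-fold lower), and TRIB3, a pseudokinase that feeds back on the pathway, at 8.21 with shTNFRSF13B and 10.73 with the empty vector (5.75-fold lower). DDIT3 (CHOP), the factor tied to death under prolonged stress, differed by less than 2-fold, at 9.55 with shTNFRSF13B and 9.92 with the empty vector.

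All 9 amino acid transporters of the list had a ratio under 0, and 6 were at least 2-fold lower. SLC7A11, which imports cystine for glutathione synthesis, stood at 11.96 with shTNFRSF13B and 14.45 with the empty vector (5.63-fold lower). SLC7A5, the large neutral amino acid carrier LAT1, stood at 11.72 with shTNFRSF13B and 13.83 with the empty vector (4.30-fold lower). The neutral amino acid carrier SLC1A4 (6.45 with shTNFRSF13B, 8.29 with the empty vector) and the arginine and lysine carrier SLC7A1 (9.90 with shTNFRSF13B, 11.60 with the empty vector) were 3.58-fold and 3.25-fold lower. The transporters thus covered cystine, large neutral, small neutral and cationic amino acids.

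Of 13 enzymes of amino acid and folate-linked carbon metabolism 9 were at least 2-fold lower. ASNS, asparagine synthetase, stood at 11.05 with shTNFRSF13B and 13.34 with the empty vector (4.87-fold lower). All 3 enzymes of serine synthesis were lower: PHGDH by 3.28-fold (11.16 with shTNFRSF13B, 12.87 with the empty vector), PSAT1 by 2.34-fold (13.65 with shTNFRSF13B, 14.88 with the empty vector) and PSPH by 2.35-fold (9.54 with shTNFRSF13B, 10.77 with the empty vector). The mitochondrial folate enzymes, which turn serine into formate, were lower beside them. MTHFD2 stood at 13.36 with shTNFRSF13B and 15.01 with the empty vector (3.14-fold lower), MTHFD1L at 9.09 with shTNFRSF13B and 10.78 with the empty vector (3.22-fold lower) and SHMT2 at 13.71 with shTNFRSF13B and 14.82 with the empty vector (2.17-fold lower).

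Of the 12 other effectors 4 were lower and 2 higher. CHAC1, which degrades glutathione, had the largest negative ratio of the list, at 10.01 with shTNFRSF13B and 13.07 with the empty vector (8.36-fold lower). DDIT4 (REDD1), an inhibitor of the growth kinase complex mTORC1, stood at 5.37 with shTNFRSF13B and 8.41 with the empty vector (8.22-fold lower), close to the floor on the shTNFRSF13B array. SESN2, a leucine sensor upstream of the same kinase, stood at 7.05 with shTNFRSF13B and 9.20 with the empty vector (4.41-fold lower). The exceptions were GDF15, a secreted stress hormone, which stood at 9.68 with shTNFRSF13B and 7.33 with the empty vector (5.09-fold higher), and KLHL24, an adaptor of a ubiquitin ligase, at 10.35 with shTNFRSF13B and 8.77 with the empty vector (2.98-fold higher). GDF15 is also a p53 target and KLHL24 also stands in the FoxO list. Without the genes shared with another list, 19 of 34 were lower and the median was -1.10.

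**Figure D2:**
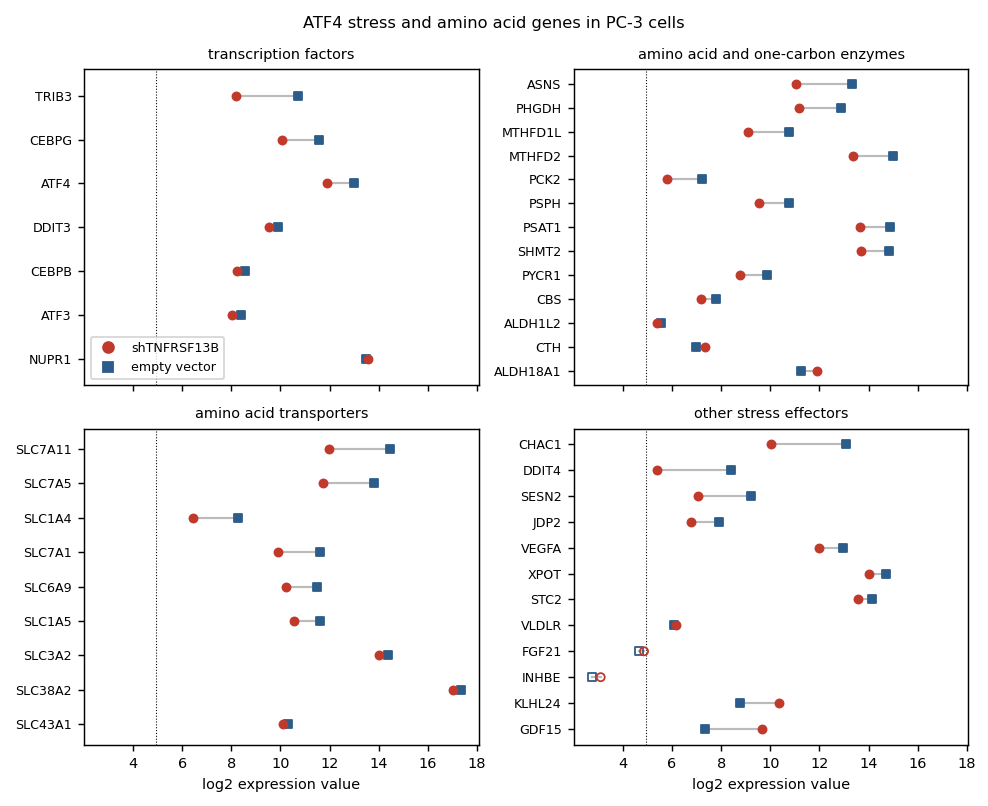
Each row is 1 of the 41 measured ATF4 stress and amino acid genes, by role, with its log2 value on the shTNFRSF13B array (red circle) and on the empty vector array (blue square). Open symbols lie under the floor of their array and the dotted line is the mean of both floors. The red circle lies left of the blue square for all 9 transporters and for 11 of 13 enzymes, while GDF15 and KLHL24 run the other way.

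Genes that use amino acids to make protein seldom passed 2-fold. The aminoacyl-tRNA synthetases load each amino acid onto its tRNA. Of 16 cytosolic synthetases 14 had a ratio under 0 and 3 passed 2-fold (median -0.61): SARS1 (11.39 with shTNFRSF13B, 12.78 with the empty vector), CARS1 (11.27 with shTNFRSF13B, 12.54 with the empty vector) and GARS1 (14.90 with shTNFRSF13B, 15.91 with the empty vector). Of 15 mitochondrial synthetases 13 had a ratio under 0 and none passed 2-fold (median -0.48). The list of MYC targets and ribosome biogenesis had a median of -0.68, with 7 of 28 genes lower and 2 higher. All 21 of its nucleolar and other targets had a ratio under 0 (median -0.82). They included the ribosome assembly factors UTP20 (9.79 with shTNFRSF13B, 11.18 with the empty vector, 2.62-fold lower) and MRTO4 (7.65 with shTNFRSF13B, 8.70 with the empty vector, 2.08-fold lower), and IFRD2, which binds idle ribosomes (8.11 with shTNFRSF13B, 10.08 with the empty vector, 3.94-fold lower). The 2 higher genes, MXD1 (9.92 with shTNFRSF13B, 8.50 with the empty vector) and MXI1 (11.14 with shTNFRSF13B, 9.56 with the empty vector), encode proteins that compete with MYC for its partner MAX. MYC itself stood at 11.83 with shTNFRSF13B and 12.53 with the empty vector, under 2-fold apart. None of 38 cytosolic ribosomal protein genes passed 2-fold (median -0.14), and none of the 8 subunits of the chaperonin CCT did, although 7 of the 8 had a ratio under 0 (median -0.64). The CCT family was chosen after its values had been seen.

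Many genes of antigen display through HLA class I were higher with shTNFRSF13B, while display at the cell surface was not measured on these arrays. HLA class I molecules carry peptides from inside the cell to its surface, where cytotoxic T cells read them. The peptides are cut by the proteasome, pumped into the endoplasmic reticulum by TAP, trimmed by ERAP enzymes and loaded with the help of tapasin. Of 20 measured genes of this route 11 were at least 2-fold higher (55.0%, against 5.76% of all genes), none was at least 2-fold lower, and the median log2 ratio was 1.38. Every step had a higher gene, and the list shares its control by interferon with the interferon-stimulated genes.

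The immunoproteasome subunits led the list. PSMB9 stood at 10.35 with shTNFRSF13B and 4.86, under the floor, with the empty vector, a difference of at least 43.2-fold. PSMB9 also stands in the interferon-stimulated list, and how many others of the HLA class I list do was not counted. PSMB8 stood at 11.37 with shTNFRSF13B and 8.03 with the empty vector (10.2-fold higher). The subunits they replace belong to the constitutive proteasome, of whose 28 measured genes none was at least 2-fold higher and 2 were lower, PSMD2 (12.38 with shTNFRSF13B, 13.72 with the empty vector) and PSMD14 (11.89 with shTNFRSF13B, 13.19 with the empty vector). The peptide pump subunit TAP1 stood at 9.34 with shTNFRSF13B and 6.77 with the empty vector (5.96-fold higher), whereas its partner TAP2 stood at 9.31 with shTNFRSF13B and 9.21 with the empty vector. TAPBP, tapasin, was 4.01-fold higher (11.35 with shTNFRSF13B, 9.34 with the empty vector), and the trimming enzymes ERAP1 and ERAP2 were 3.92-fold and 3.07-fold higher.

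Of 7 HLA class I and related chains 4 were at least 2-fold higher. HLA-C stood at 12.40 with shTNFRSF13B and 9.46 with the empty vector (7.69-fold higher), HLA-F at 10.81 with shTNFRSF13B and 8.63 with the empty vector (4.54-fold higher) and HLA-E, a ligand of natural killer cell receptors, at 11.53 with shTNFRSF13B and 9.77 with the empty vector (3.41-fold higher). Their shared light chain B2M stood at 17.02 with shTNFRSF13B and 15.13 with the empty vector (3.70-fold higher). MICA, a stress ligand that is not loaded with peptide, stood at 9.09 with shTNFRSF13B and 9.47 with the empty vector. HLA genes resemble each other in sequence, and how far their probes respond to each other was not tested. HLA class II was mostly dim: 2 of 11 genes were above the floor on any array, and HLA-DMA passed 2-fold (6.52 with shTNFRSF13B, 5.37 with the empty vector).

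A second tier of interferon genes, among them guanylate-binding proteins, APOL proteins and antiviral TRIM ligases, was higher as well. Of 50 measured genes 30 were at least 2-fold higher (60%, against 5.76% of all genes), none was at least 2-fold lower, and the median was 1.88. After the 18 genes that also stand in the list of interferon-stimulated genes were left out, 17 of 32 were higher with a median of 1.25. Several of these promoters hold the core of the interferon-stimulated response element, which the complex ISGF3 binds. Below, 4 windows are shown from higher members of the list, of which TLR3 and GBP1 are described next. Its letters, GAAA and again GAAA after any 2 bases, were searched on both strands and were present in 3.11% of the 14250 promoters, in 14 of 34 promoters of this list (41.2%) and in 12 of the 22 promoters of its higher members. Over all genes they were present in 9.09% of 825 promoters of genes at least 2-fold higher and in 1.78% of 675 promoters of genes at least 2-fold lower. In none of these 12 promoters did a match overlap another of the searched motifs. The windows lie at chr3:146544647-146544716 (- strand, PLSCR1), chr17:78979942-78980011 (- strand, LGALS3BP), chr4:186069122-186069191 (+ strand, TLR3) and chr1:89065296-89065365 (- strand, GBP1), RefSeq GRCh38.p14, with the matched letters, or their reverse complement, in capitals.
PLSCR1: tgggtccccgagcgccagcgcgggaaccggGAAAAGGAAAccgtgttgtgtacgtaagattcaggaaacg
LGALS3BP: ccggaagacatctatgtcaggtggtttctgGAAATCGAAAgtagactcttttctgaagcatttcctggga
TLR3: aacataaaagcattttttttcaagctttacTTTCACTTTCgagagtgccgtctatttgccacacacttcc
GBP1: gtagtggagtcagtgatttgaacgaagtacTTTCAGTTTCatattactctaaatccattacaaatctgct
The match says nothing of whether a factor was bound in these cells.

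The largest of these ratios belonged to CMPK2, a mitochondrial nucleotide kinase, at 12.07 with shTNFRSF13B and 6.36 with the empty vector (52.5-fold higher), and to SP110, a nuclear body protein, at 14.01 with shTNFRSF13B and 8.64 with the empty vector (41.4-fold higher). USP18, which removes the ubiquitin-like protein ISG15 and restrains interferon receptor signalling, stood at 11.41 with shTNFRSF13B and 6.10 with the empty vector (39.7-fold higher). GBP1, a GTPase that coats bacteria in the cytosol, was 18.3-fold higher (9.30 with shTNFRSF13B, 5.11 with the empty vector) and GBP2 14.8-fold higher (10.40 with shTNFRSF13B, 6.51 with the empty vector). TRIM22, an antiviral ubiquitin ligase, was at least 18.5-fold higher (9.13 with shTNFRSF13B, 4.36 with the empty vector). The ISG15-conjugating enzyme UBE2L6 stood at 15.01 with shTNFRSF13B and 11.06 with the empty vector (15.4-fold higher), and SP100 at 12.24 with shTNFRSF13B and 8.27 with the empty vector (15.7-fold higher). Of these, CMPK2, SP110, USP18, GBP1, TRIM22 and UBE2L6 also stand in the interferon-stimulated list, where they were counted already. TLR3, the endosomal sensor of double-stranded RNA, stood at 7.66 with shTNFRSF13B and 4.58 with the empty vector, at least 6.69-fold higher. CD274 (PD-L1), the ligand that restrains T cells, differed by less than 2-fold, at 6.35 with shTNFRSF13B and 5.38 with the empty vector.

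Among inflammatory signals, a minority was higher with shTNFRSF13B. Chemokines draw leukocytes and interleukins instruct them, and PC-3 cells are known for making CXCL8. Of 39 measured chemokine and interleukin genes 10 were at least 2-fold higher (25.6%, against 5.76% of all genes) and none was at least 2-fold lower. The median ratio was 0.43, but 13 of the 39 were dim on both arrays. Once dim values were raised to the floor, 5 of the 10 still passed 2-fold and the median was 0.22, within the middle 50% of all genes. IL1B, the pyrogenic cytokine that the inflammasome matures, stood at 8.80 with shTNFRSF13B and 5.78 with the empty vector (8.13-fold higher). CXCL8, the neutrophil attractant, stood at 10.62 with shTNFRSF13B and 7.93 with the empty vector (6.48-fold higher), and CXCL1, which binds the same receptor, at 8.08 with shTNFRSF13B and 5.73 with the empty vector (5.09-fold higher). CSF1, the growth factor of macrophages, was at least 6.80-fold higher (7.68 with shTNFRSF13B, 4.89 with the empty vector) and CCL20 at least 2.70-fold (6.35 with shTNFRSF13B, 3.85 with the empty vector). The interferon chemokine CXCL10 (5.67 with shTNFRSF13B, 3.85 with the empty vector) and IL6 (5.33 with shTNFRSF13B, 3.42 with the empty vector) were close to the floor where they were highest, and their folds against the floor were only at least 1.68 and at least 1.33.

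NF-kappaB is the route by which TACI is known to signal in B cells. Its genes were split. TNFAIP3 (A20), an inhibitor of the pathway that the pathway itself induces, stood at 9.65 with shTNFRSF13B and 6.70 with the empty vector (7.76-fold higher), and NFKBIA, the inhibitor that holds the factor in the cytosol, at 11.26 with shTNFRSF13B and 9.94 with the empty vector (2.49-fold higher). Other induced targets did not pass 2-fold: ICAM1 stood at 12.12 with shTNFRSF13B and 12.25 with the empty vector, and RELB at 5.97 with shTNFRSF13B and 6.04 with the empty vector. The subunits NFKB1 (10.23 with shTNFRSF13B, 9.73 with the empty vector) and RELA (10.71 with shTNFRSF13B, 11.16 with the empty vector) also differed by less. Over 27 measured genes 3 were at least 2-fold higher, of which 1 was dim on both arrays, and the median was 0.22. A loose form of the NF-kappaB site, GGG and CC with any 5 bases between them on either strand, was in 67.8% of all promoters and in 18 of the 29 chemokine and interleukin promoters, so no sequence is shown for it.

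Complement and acute phase genes included 6 of 22 that were at least 2-fold higher and 1 lower. PI3 (elafin), an inhibitor of neutrophil elastase, stood at 15.57 with shTNFRSF13B and 11.26 with the empty vector (log2 ratio 4.31), and its relative SLPI at 8.75 with shTNFRSF13B and 5.91 with the empty vector (7.14-fold higher). The complement protease C1S stood at 8.42 with shTNFRSF13B and 5.50 with the empty vector (7.59-fold higher) and C5 at 10.75 with shTNFRSF13B and 9.67 with the empty vector (2.11-fold higher). Of 13 complement genes 4 were higher (median 0.49). Of 9 acute phase and secreted defence genes only PI3 and SLPI were higher, 1 gene dim on both arrays had a ratio under -1, and the median was 0.10. Once dim values were raised to the floor, 4 of the 22 were higher.

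Genes that FoxO factors are known to induce when insulin and growth factor signals are low were higher with shTNFRSF13B. FoxO proteins are kept out of the nucleus by the kinase AKT and otherwise drive catabolic and cell cycle arrest genes. Of 34 measured genes 15 were at least 2-fold higher (44.1%, against 5.76% of all genes), none was at least 2-fold lower, 31 had a ratio over 0, and the median was 0.79. The 4 factors themselves did not pass 2-fold, with FOXO1 at 7.05 for shTNFRSF13B and 6.33 for the empty vector and FOXO3 at 9.96 for shTNFRSF13B and 9.34 for the empty vector. ARRDC3, an arrestin-like adaptor that sends receptors to degradation, stood at 13.83 with shTNFRSF13B and 9.93 with the empty vector (14.9-fold higher). IGF1R, the IGF-I receptor, stood at 9.84 with shTNFRSF13B and 7.22 with the empty vector (6.14-fold higher), and TCP11L2 at 12.14 with shTNFRSF13B and 9.81 with the empty vector (5.01-fold higher). GABARAPL1, which builds autophagosome membranes, was 4.55-fold higher (10.81 with shTNFRSF13B, 8.63 with the empty vector). PDK4, which shuts pyruvate out of the mitochondrial cycle, was 4.09-fold higher (7.21 with shTNFRSF13B, 5.18 with the empty vector), and HBP1, a repressor of cell cycle entry, 3.40-fold higher (12.95 with shTNFRSF13B, 11.19 with the empty vector). FBXO32 (atrogin-1), an atrophy ubiquitin ligase, was 3.16-fold higher (9.42 with shTNFRSF13B, 7.75 with the empty vector), as was CCNG2, a cyclin of arrested cells (11.64 with shTNFRSF13B, 9.98 with the empty vector). YPEL3 was at least 4.64-fold higher (7.13 with shTNFRSF13B, 4.39 with the empty vector). Without genes that stand in another list, 9 of 23 were higher with a median of 0.65.

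**Figure D3:**
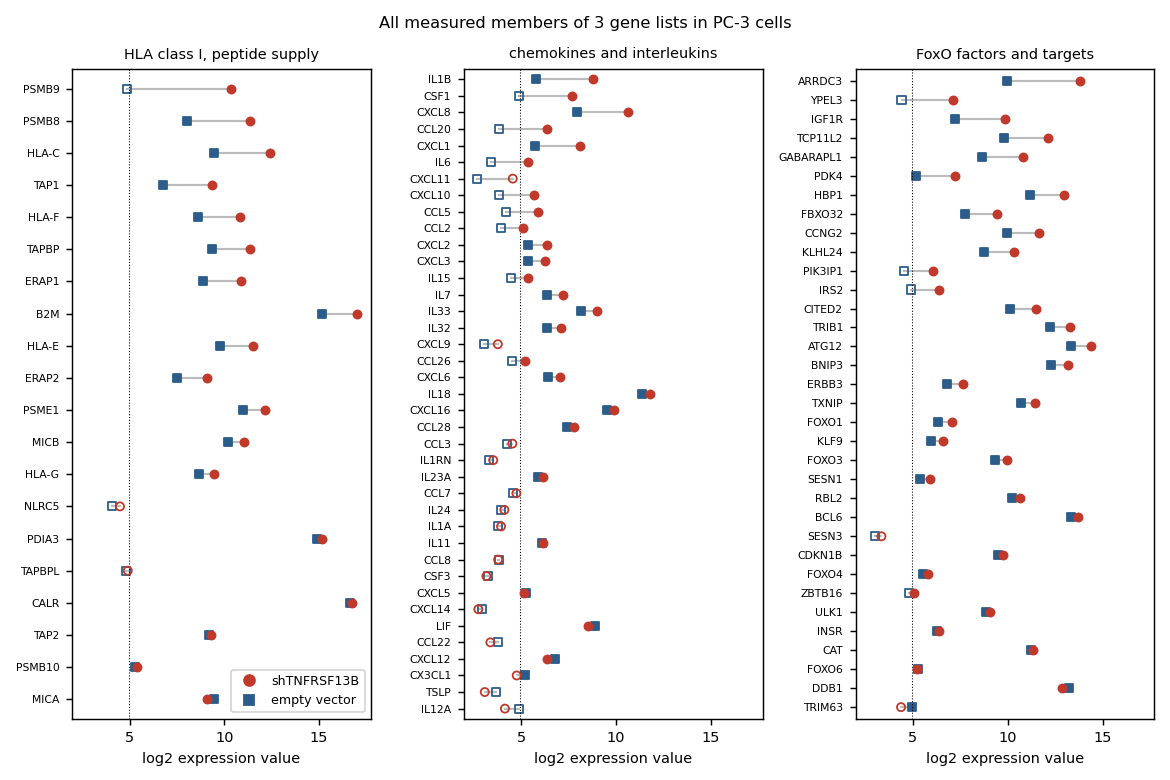
Log2 values of all measured members of the HLA class I (20 genes), chemokine and interleukin (39 genes) and FoxO (34 genes) lists on the shTNFRSF13B array (red circle) and the empty vector array (blue square), sorted by ratio. Open symbols lie under the floor of their array and the dotted line is the mean of both floors. The higher HLA and FoxO genes span the whole range of levels, whereas most chemokines and interleukins lie near the floor.

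Autophagy and lysosome genes leaned higher but seldom by 2-fold. Of 48 genes 36 had a ratio over 0, 6 were at least 2-fold higher, none was at least 2-fold lower, and the median was 0.38. LAMP3, a lysosomal membrane protein that interferon also induces, stood at 12.38 with shTNFRSF13B and 9.62 with the empty vector (6.78-fold higher). The cargo receptors SQSTM1 (p62; 14.27 with shTNFRSF13B, 13.04 with the empty vector) and OPTN (9.24 with shTNFRSF13B, 8.19 with the empty vector) were 2.34-fold and 2.08-fold higher. WIPI1, which marks forming autophagosomes, was 3.08-fold higher (11.91 with shTNFRSF13B, 10.29 with the empty vector).

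The insulin and IGF axis moved in both directions. Beside the higher IGF1R, its docking protein IRS1 stood at 8.09 with shTNFRSF13B and 9.81 with the empty vector (3.28-fold lower), while IRS2 was at least 2.71-fold higher (6.35 with shTNFRSF13B, 4.89 with the empty vector). IGFBP4, which binds IGFs in the medium, stood at 9.84 with shTNFRSF13B and 12.41 with the empty vector (5.94-fold lower), and IGFBP6 at 7.78 with shTNFRSF13B and 6.36 with the empty vector (2.67-fold higher). Of 19 genes 4 were higher and 2 lower.

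Receptor tyrosine kinases, which carry growth factor signals across the membrane, showed no common direction (43 genes with their EGF family ligands, median 0.09). Of the 43, 5 were higher (11.6%) and 3 lower (6.98%), against 5.76% and 4.69% of all genes. AXL, the receptor of GAS6, stood at 10.40 with shTNFRSF13B and 12.30 with the empty vector (3.73-fold lower). EGFR stood at 9.30 with shTNFRSF13B and 10.48 with the empty vector (2.26-fold lower), and its ligand HBEGF at 8.67 with shTNFRSF13B and 9.80 with the empty vector (2.19-fold lower). FLT1, the VEGF receptor 1, was at least 7.05-fold higher (7.74 with shTNFRSF13B, 4.49 with the empty vector), ROR1 2.59-fold higher (11.84 with shTNFRSF13B, 10.47 with the empty vector) and ERBB4 2.28-fold higher (7.59 with shTNFRSF13B, 6.40 with the empty vector). MET differed by less than 2-fold, at 14.63 with shTNFRSF13B and 14.25 with the empty vector.

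Genes that report or restrain the kinase ERK downstream of these receptors were split as well, with 6 of 27 lower, 4 higher and a median of -0.15. The lower ones included the ETS factors ETV4 (9.66 with shTNFRSF13B, 11.13 with the empty vector, 2.76-fold lower) and ETV5 (10.78 with shTNFRSF13B, 11.83 with the empty vector, 2.07-fold lower). ERRFI1, an inhibitor of EGFR, was 2.60-fold lower (16.19 with shTNFRSF13B, 17.57 with the empty vector) near the top of the range of the array. The higher ones included SPRY1 (12.89 with shTNFRSF13B, 10.59 with the empty vector, 4.90-fold higher), a brake on receptor signalling, and DUSP6, the ERK phosphatase (13.66 with shTNFRSF13B, 12.48 with the empty vector, 2.28-fold higher). SPRY2 stood at 8.73 with shTNFRSF13B and 8.60 with the empty vector, and SPRY4 at 12.10 with shTNFRSF13B and 11.91 with the empty vector.

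In the receptor family that TNFRSF13B belongs to, 3 of 32 measured ligands and receptors were at least 2-fold higher and 1 lower (median -0.12). These shares were 9.4% higher and 3.1% lower, near the 5.76% and 4.69% of all genes. TNFSF10 (TRAIL), a ligand that kills through death receptors and that interferon induces, also stands in the interferon-stimulated list. It stood at 9.29 with shTNFRSF13B and 3.68 with the empty vector, at least 20.6-fold higher. Its receptors TNFRSF10A (9.95 with shTNFRSF13B, 10.52 with the empty vector) and TNFRSF10B (9.39 with shTNFRSF13B, 10.13 with the empty vector) differed by less than 2-fold. The death receptor FAS was 2.49-fold higher (8.43 with shTNFRSF13B, 7.12 with the empty vector), and TNFRSF12A, the receptor of TWEAK, 2.01-fold lower (12.99 with shTNFRSF13B, 13.99 with the empty vector). TNFRSF17 (BCMA), which shares ligands with TACI, was dim on both arrays (2.79 with shTNFRSF13B, 2.80 with the empty vector).

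Among the cell death genes, the higher ones were caspases, their regulators and an inflammasome sensor. Of 20 caspases and inflammasome genes 6 were at least 2-fold higher (median 0.55), and of 15 BCL2 family genes none was (median -0.07). CASP8, the initiator caspase of death receptors, stood at 11.36 with shTNFRSF13B and 10.10 with the empty vector (2.39-fold higher), and its inhibitor CFLAR at 13.58 with shTNFRSF13B and 12.35 with the empty vector (2.36-fold higher). XIAP, which blocks caspases, was 2.47-fold higher (9.78 with shTNFRSF13B, 8.47 with the empty vector). Its antagonist XAF1, which also stands in the interferon-stimulated list, stood at 9.52 with shTNFRSF13B and 5.21 with the empty vector (log2 ratio 4.31). NLRP3, the sensor of an inflammasome, stood at 8.10 with shTNFRSF13B and 5.78 with the empty vector (log2 ratio 2.32). BAK1, which opens the mitochondrial membrane, was 2.60-fold lower (9.39 with shTNFRSF13B, 10.76 with the empty vector), while MCL1 stood at 13.23 with shTNFRSF13B and 13.18 with the empty vector.

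The p53 targets had no common direction in these p53-deficient cells: 6 of 35 were higher, 6 lower, and the median was -0.12. TP53INP1 was 4.26-fold higher (8.33 with shTNFRSF13B, 6.24 with the empty vector). TRIAP1, an inhibitor of apoptosis, was 3.35-fold lower (7.09 with shTNFRSF13B, 8.84 with the empty vector), and AEN, a nuclease, 2.58-fold lower (9.76 with shTNFRSF13B, 11.13 with the empty vector). The most used reporters of the pathway differed little: CDKN1A stood at 5.16 with shTNFRSF13B and 5.48 with the empty vector, and MDM2 at 9.35 with shTNFRSF13B and 9.70 with the empty vector.

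The cell surface and matrix held many of the largest single differences. SPARC, a matrix glycoprotein, stood at 12.18 with shTNFRSF13B and 6.23 with the empty vector (61.8-fold higher). Tight junction claudins went both ways: CLDN1 stood at 13.47 with shTNFRSF13B and 9.67 with the empty vector (14.0-fold higher), CLDN12 at 9.95 with shTNFRSF13B and 8.37 with the empty vector (2.98-fold higher), and CLDN11 at 8.19 with shTNFRSF13B and 12.34 with the empty vector (17.7-fold lower). CLDN11 had the largest negative ratio of any gene in the comparison outside the lists of cell cycle genes and the histones, among genes above the median of at least 1 array. The tight junction protein OCLN stood at 10.44 with shTNFRSF13B and 9.55 with the empty vector, and CDH1 (E-cadherin) was dim on both arrays. Of the 35 genes of epithelial adhesion 4 passed 2-fold, 3 of them higher (8.57%) and 1 lower (2.86%), near the shares of all genes. The median ratio was 0.04 for the epithelial adhesion list and 0.30 for the mesenchymal list. Once dim values were raised to the floor it was 0.06 for each. This value is the gap between the floors of both arrays, which every gene dim on both takes. It therefore does not show whether the lists differed. The mesenchymal factors ZEB1 (11.85 with shTNFRSF13B, 11.86 with the empty vector) and SNAI2 (8.54 with shTNFRSF13B, 8.30 with the empty vector) were nearly equal on both arrays.

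Structural mesenchymal genes were higher in 5 of 14 cases. FN1, fibronectin, was 2.60-fold higher (11.28 with shTNFRSF13B, 9.91 with the empty vector), THBS1 2.42-fold higher (10.36 with shTNFRSF13B, 9.08 with the empty vector) and the collagen cross-linker LOX 7.44-fold higher (8.41 with shTNFRSF13B, 5.51 with the empty vector). TNC, tenascin-C, ran the other way, at 6.48 with shTNFRSF13B and 8.64 with the empty vector (4.46-fold lower). Among 22 collagens, COL5A2 was 2.72-fold higher (12.18 with shTNFRSF13B, 10.74 with the empty vector) and COL6A3 at least 4.56-fold lower (4.88 with shTNFRSF13B, 7.17 with the empty vector).

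Proteoglycans carry sugar chains that bind growth factors, and the syndecans among them differed in direction. SDC2 stood at 12.10 with shTNFRSF13B and 7.99 with the empty vector (17.2-fold higher) and SDC4 at 12.21 with shTNFRSF13B and 10.54 with the empty vector (3.18-fold higher), whereas SDC1, the syndecan of epithelia and plasma cells, stood at 8.73 with shTNFRSF13B and 11.50 with the empty vector (6.82-fold lower). HAS2, the hyaluronan synthase, was 5.59-fold higher (9.11 with shTNFRSF13B, 6.63 with the empty vector) and the glypican GPC4 4.39-fold higher (10.42 with shTNFRSF13B, 8.28 with the empty vector). In all 5 of 19 genes of this list were higher and 1 lower (median 0.58). Of 25 matrix proteases 3 were higher, the collagenases MMP1 (15.79 with shTNFRSF13B, 12.76 with the empty vector, 8.16-fold higher) and MMP13 (16.43 with shTNFRSF13B, 13.76 with the empty vector, 6.38-fold higher) and ADAMTS1 (10.04 with shTNFRSF13B, 8.26 with the empty vector, 3.45-fold higher). Of 18 integrins, the matrix receptors, 2 were at least 2-fold higher (11.1%) and 1 lower (5.56%), with a median of 0.06. ITGA10 was 2.44-fold higher (6.23 with shTNFRSF13B, 4.95 with the empty vector) and ITGA5, a chain of the fibronectin receptor, at least 2.03-fold higher (5.94 with shTNFRSF13B, 4.39 with the empty vector). The collagen receptor chain ITGA2 was 2.42-fold lower (11.39 with shTNFRSF13B, 12.66 with the empty vector), and the shared chain ITGB1 stood at 16.52 with shTNFRSF13B and 16.43 with the empty vector.

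Of 33 genes of secretory epithelia 9 were at least 2-fold higher and 1 lower (median 0.30). Once dim values were raised to the floor the median was 0.06, which is the gap between the floors of both arrays. TSPAN8, a tetraspanin of gut epithelium, stood at 12.12 with shTNFRSF13B and 8.32 with the empty vector (14.0-fold higher). CEACAM1, an adhesion molecule, stood at 9.43 with shTNFRSF13B and 4.87 with the empty vector (at least 22.9-fold higher). TFF1, a mucosal trefoil peptide, was at least 8.90-fold higher (8.07 with shTNFRSF13B, 4.72 with the empty vector), and AGR2, a disulphide isomerase of mucus-secreting cells, 8.38-fold higher (9.80 with shTNFRSF13B, 6.73 with the empty vector). The pioneer factor FOXA1 was 2.32-fold higher (12.75 with shTNFRSF13B, 11.53 with the empty vector) and FOXA2 2.18-fold lower (6.28 with shTNFRSF13B, 7.40 with the empty vector). Of 14 keratins 10 had a ratio under 0 (median -0.45). With dim values raised to the floor their median was 0.06, again the gap between the floors. Of the 14, 2 were at least 2-fold lower and 1 higher, and 7 were above the floor on at least 1 array. KRT80 was 3.64-fold lower (5.51 with shTNFRSF13B, 7.37 with the empty vector) and KRT7 2.38-fold lower (12.37 with shTNFRSF13B, 13.62 with the empty vector), while the luminal KRT8 was 2.14-fold higher (14.43 with shTNFRSF13B, 13.33 with the empty vector). CEACAM genes resemble each other, and probe sharing between them was not tested.

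Of the developmental pathways, 7 of 39 TGF-beta and BMP genes were at least 2-fold higher and none lower, with a median of 0.25 (0.09 once dim values were raised to the floor), within the middle 50% of all genes. BMP4 stood at 13.13 with shTNFRSF13B and 10.08 with the empty vector (8.28-fold higher). Its receptor BMPR2 was 2.14-fold higher (10.62 with shTNFRSF13B, 9.53 with the empty vector), its transducer SMAD9 2.84-fold (7.15 with shTNFRSF13B, 5.65 with the empty vector) and BAMBI, a decoy receptor that the pathway induces, 3.64-fold (8.18 with shTNFRSF13B, 6.31 with the empty vector). CDKN2B (p15), a cyclin-dependent kinase inhibitor that TGF-beta induces, was 3.67-fold higher (9.85 with shTNFRSF13B, 7.97 with the empty vector). The NOTCH target HEY1 stood at 10.53 with shTNFRSF13B and 13.37 with the empty vector (7.14-fold lower), while HES1 stood at 10.02 with shTNFRSF13B and 9.85 with the empty vector. HEY1 is also a BMP target. LGR5, the R-spondin receptor of stem cells, was 4.20-fold higher (9.32 with shTNFRSF13B, 7.25 with the empty vector) and the ligand WNT7A 3.56-fold lower (8.21 with shTNFRSF13B, 10.04 with the empty vector). Of 39 WNT genes 2 were higher (5.13%) and 1 lower (2.56%), no more than the 5.76% and 4.69% of all genes. Targets of YAP and TEAD, which respond to cell contact and tension, were mixed, with 6 of 26 higher and 2 lower: NT5E (CD73), which makes adenosine, was 5.74-fold higher (14.82 with shTNFRSF13B, 12.30 with the empty vector), CCN1 2.94-fold higher (11.88 with shTNFRSF13B, 10.32 with the empty vector) and AJUBA 2.52-fold lower (10.27 with shTNFRSF13B, 11.61 with the empty vector).

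In metabolism, 5 of 25 sterol genes were at least 2-fold higher and 1 lower (median 0.43). HMGCS1, which makes the precursor of mevalonate, stood at 11.76 with shTNFRSF13B and 9.74 with the empty vector (4.07-fold higher), and MSMO1, a sterol demethylase, at 13.72 with shTNFRSF13B and 11.77 with the empty vector (3.85-fold higher). INSIG1, the brake on sterol sensing that SREBP2 induces, was 2.93-fold higher (7.31 with shTNFRSF13B, 5.75 with the empty vector), and ABCG1, a sterol exporter, 2.09-fold lower (7.90 with shTNFRSF13B, 8.96 with the empty vector). SREBF2, which encodes SREBP2, did not pass 2-fold (9.51 with shTNFRSF13B, 9.08 with the empty vector). The letters TCACNCCAC, a form of the sterol response element, were in 1.16% of all promoters, in 1 of 22 of this list and in none of its 5 higher members.

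Hypoxia genes were higher in 6 of 21 cases (median 0.42), while glycolysis, which hypoxia is known to induce, was not. ADM, a vasodilator peptide, stood at 9.73 with shTNFRSF13B and 6.90 with the empty vector (7.14-fold higher), NDRG1 at 7.85 with shTNFRSF13B and 6.04 with the empty vector (3.51-fold higher) and P4HA1, a collagen prolyl hydroxylase, at 14.23 with shTNFRSF13B and 12.60 with the empty vector (3.09-fold higher). VEGFA, shared with the ATF4 list, stood at 11.99 with shTNFRSF13B and 12.94 with the empty vector. Of 20 glycolysis genes none was at least 2-fold higher and 17 had a ratio under 0 (median -0.31), with HK2 2.30-fold lower (7.22 with shTNFRSF13B, 8.42 with the empty vector) and LDHA at 16.85 with shTNFRSF13B and 17.18 with the empty vector. Respiratory chain genes differed little, with 1 of 35 past 2-fold (CYC1, 12.86 with shTNFRSF13B and 13.88 with the empty vector) and a median of -0.24.

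Protein folding genes had no shared direction. Of 19 chaperone and degradation genes of the endoplasmic reticulum only DNAJB9 passed 2-fold (10.66 with shTNFRSF13B, 8.43 with the empty vector, 4.69-fold higher). The master chaperone HSPA5 stood at 15.11 with shTNFRSF13B and 14.76 with the empty vector, so the lower ATF4 genes stood beside an unfolded protein list with a median of -0.04. Of 18 heat shock genes HSPA1A (11.25 with shTNFRSF13B, 8.77 with the empty vector, 5.60-fold higher) and DNAJB4 (9.20 with shTNFRSF13B, 7.11 with the empty vector, 4.24-fold higher) were higher. HSPA1A has a near-identical copy in the genome, and its probes cannot be taken to read it alone.

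Antioxidant genes of NRF2 were mixed (27 genes, 3 higher, 3 lower, median -0.24). GCLM, the modifier of glutathione synthesis, was 2.88-fold lower (7.70 with shTNFRSF13B, 9.23 with the empty vector) and joined SLC7A11, while NQO1 stood at 13.77 with shTNFRSF13B and 14.19 with the empty vector. ABCC3, an exporter of conjugates, was 4.85-fold higher (11.07 with shTNFRSF13B, 8.80 with the empty vector). The aryl hydrocarbon receptor target CYP1A1 was 2.57-fold higher (7.23 with shTNFRSF13B, 5.87 with the empty vector) and TIPARP, its feedback inhibitor, 3.15-fold higher (14.13 with shTNFRSF13B, 12.48 with the empty vector). HPGD, which inactivates prostaglandins, stood at 14.36 with shTNFRSF13B and 10.11 with the empty vector (19.1-fold higher), and PTGFR, the receptor of prostaglandin F, at 8.41 with shTNFRSF13B and 10.78 with the empty vector (5.18-fold lower). PTGS2 (COX-2) was dim on both arrays. The zinc importer SLC39A14 was 4.27-fold lower (9.93 with shTNFRSF13B, 12.03 with the empty vector). RBP4, the retinol carrier, was 7.47-fold higher (8.02 with shTNFRSF13B, 5.12 with the empty vector), and PLAAT4, a retinoid- and interferon-induced acyltransferase, 3.97-fold higher (7.46 with shTNFRSF13B, 5.48 with the empty vector).

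**Figure D4:**
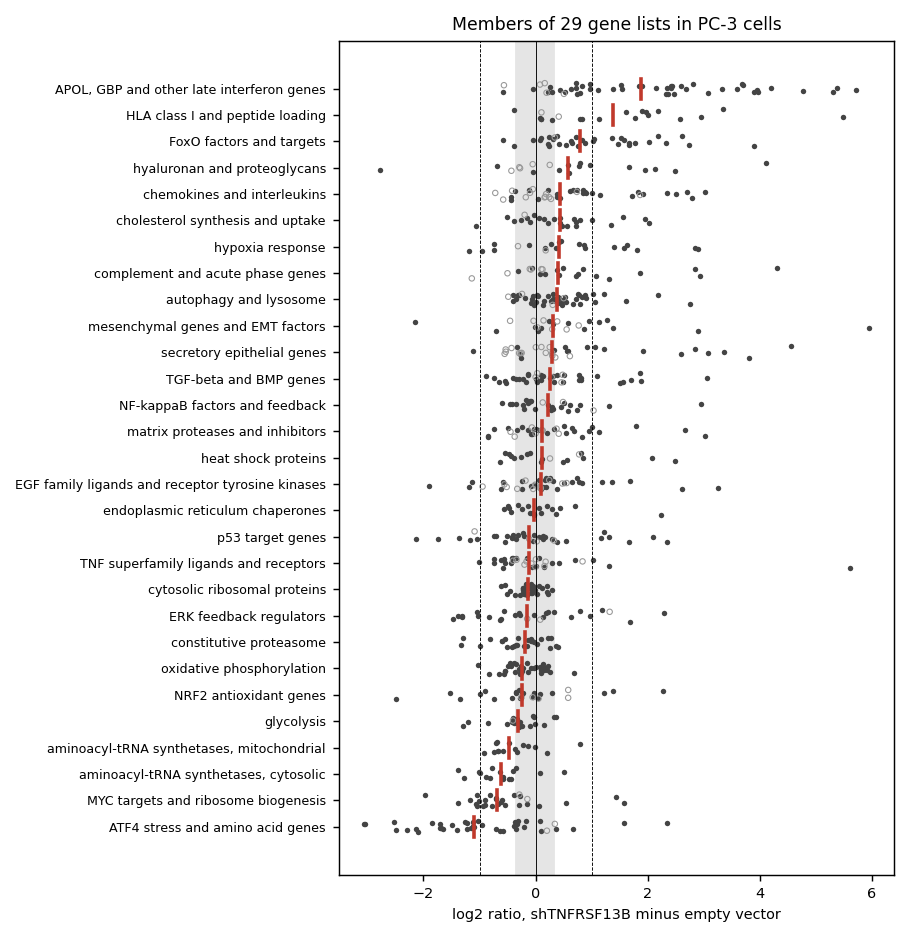
Log2 ratios (shTNFRSF13B minus empty vector) of the members of 29 gene lists, 1 point a gene, sorted by the list median (red bar). Open points were under the floor on both arrays, dashed lines mark 2-fold and the grey band holds the middle 50% of all genes. The late interferon, HLA class I and FoxO lists have their medians furthest to the right, and the ATF4 list has its median furthest to the left.

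The 20 largest positive and the 20 largest negative ratios outside the cell cycle, interferon-stimulated and histone genes, among genes above the median of at least 1 array, included several genes of no list. TRANK1 led the positive ones, at 10.84 with shTNFRSF13B and 4.71 with the empty vector (at least 60.8-fold higher). ABCA8, a lipid transporter, was at least 30.2-fold higher (9.84 with shTNFRSF13B, 4.66 with the empty vector), and SEMA5A, a guidance molecule, 33.1-fold higher (11.12 with shTNFRSF13B, 6.07 with the empty vector). The salivary cystatins CST1 (11.20 with shTNFRSF13B, 6.11 with the empty vector) and CST4 (10.06 with shTNFRSF13B, 5.86 with the empty vector) were 34.1-fold and 18.4-fold higher, and as near relatives they may share probe sequence. The phospholipases LIPH (11.50 with shTNFRSF13B, 6.92 with the empty vector, 24.0-fold higher) and PLA1A (10.49 with shTNFRSF13B, 6.19 with the empty vector, 19.7-fold higher) both release fatty acids from phospholipids. SPTSSB, a subunit of the enzyme that starts sphingolipid synthesis, was 18.6-fold higher (12.17 with shTNFRSF13B, 7.96 with the empty vector). BTN3A2, a butyrophilin of the family that gamma-delta T cells sense, was 19.4-fold higher (12.16 with shTNFRSF13B, 7.89 with the empty vector). BCAT1, the cytosolic transaminase of branched-chain amino acids, was higher by a log2 ratio of at least 2.81 (7.73 with shTNFRSF13B, 3.66 with the empty vector), against the direction of most amino acid enzymes. BHLHE41, a repressor of the circadian clock, was 15.0-fold higher (12.25 with shTNFRSF13B, 8.34 with the empty vector), and PLSCR4, a phospholipid scramblase, 14.8-fold higher (10.10 with shTNFRSF13B, 6.21 with the empty vector).

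Among the negative ratios, ADGRG1 (GPR56), an adhesion receptor, stood at 7.07 with shTNFRSF13B and 10.16 with the empty vector (8.54-fold lower). CLMP, a junctional adhesion molecule, was 6.02-fold lower (8.06 with shTNFRSF13B, 10.65 with the empty vector). SOCS2, which restrains growth hormone signalling, was 5.21-fold lower (10.45 with shTNFRSF13B, 12.83 with the empty vector). OSR1, a developmental transcription factor, was 5.27-fold lower (8.91 with shTNFRSF13B, 11.30 with the empty vector). ARPC1A, a subunit of the actin-branching ARP2/3 complex, was 5.03-fold lower (10.95 with shTNFRSF13B, 13.28 with the empty vector), and SNRPC, a protein of the U1 splicing particle, 5.61-fold lower (7.52 with shTNFRSF13B, 10.01 with the empty vector). SLC43A3, a purine nucleobase carrier, was 4.96-fold lower (6.54 with shTNFRSF13B, 8.85 with the empty vector), GPSM2, which orients the mitotic spindle, 5.07-fold lower (6.91 with shTNFRSF13B, 9.25 with the empty vector) and NRM, a nuclear membrane protein, 5.75-fold lower (7.49 with shTNFRSF13B, 10.02 with the empty vector). Large negative ratios were fewer than large positive ones: 10 genes were at least 8-fold lower and 94 at least 8-fold higher.

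**Figure D5:**
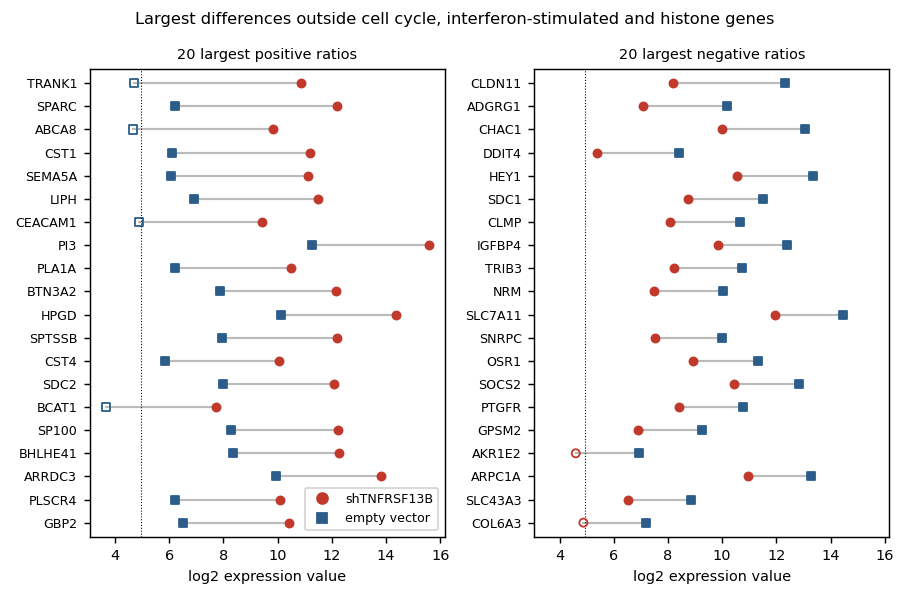
Log2 values of the 20 genes with the largest positive and the 20 with the largest negative ratios outside the cell cycle, interferon-stimulated and histone genes, on the shTNFRSF13B array (red circle) and the empty vector array (blue square). Open symbols lie under the floor of their array and the dotted line is the mean of both floors. Of the positive ratios, TRANK1, ABCA8, CEACAM1 and BCAT1 were measured against a dim empty vector value, and of the negative ones AKR1E2 and COL6A3 were dim with shTNFRSF13B.

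In the second line of the series, 22Rv1, the same hairpin was compared with the same vector on 1 array each, and the median log2 ratio over all genes was 1.22 as deposited, so list medians are set against that median. The ATF4 list lay below it by 1.04 log2 units in 22Rv1 cells (median ratio minus that of all genes, -1.04), beside -1.10 in PC-3 cells. The HLA class I list lay 0.75 above it in 22Rv1 cells, beside 1.38 in PC-3 cells. For the FoxO list the value was -0.51 in 22Rv1 cells, beside 0.79 in PC-3 cells. Before the median of all genes was subtracted, the 22Rv1 medians were 0.18 for ATF4, 1.96 for HLA class I and 0.70 for FoxO. In single genes, SLC7A11 stood at 11.29 with shTNFRSF13B and 13.56 with the empty vector in 22Rv1 cells, and ARRDC3 at 7.34 with shTNFRSF13B and 9.29 with the empty vector. With 1 array per condition in each line, no difference between the lines was tested.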

How the data were processed

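Total RNA of each condition was hybridised to 1 Affymetrix array. The methods name Clariom D, but the probe sets and control names resemble another human Affymetrix design, and which was used is not settled here. The authors deposited log2 values of 24351 probe sets on each array. RMA, Partek and Affymetrix Expression Console stand in the submitters' processing notes, with versions not given in the sources used here. Platform annotation paired 17709 probe sets with 1 symbol and 6642 with none listed, and the unnamed ones were used only as controls or for counts. Of several probe sets for a gene (20 genes), that with the highest mean of all 4 arrays was kept. No further background correction or normalization was applied to the values.

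The log2 ratio was the PC-3 shTNFRSF13B value minus the PC-3 empty vector value. No test was possible with 1 array a side, and precision is limited by the number of arrays. The steps were checked on simulated data in Python 3.11.15 with pandas 2.3.3 and NumPy 2.4.6. The members, the 48 gene lists (1420 genes measured), the motifs and the rule for named genes were chosen with earlier results of these data known. The rule names TNFRSF13B, the 20 largest positive and negative ratios described in the results, and in each list up to 8 members past 2-fold and above the floor on at least 1 array, with up to 3 central members. Other named genes, such as PHGDH, PSAT1, PSPH, SHMT2, MTHFD2, MTHFD1L, SLC1A4, SLC7A1, KLHL24, HLA-E, ERAP2, TLR3 and the markers of other cells, and the gene families were chosen after their values had been seen. Alternatives were centring, quantile normalization, loess within the pair (span 0.4), leaving out or raising dim values, averaging the probe sets of a gene, and thresholds of 1.5-fold and 3-fold. Some genes of the pathways were not analysed here.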

Additional observations from a re-analysis of the deposited data

Results flagged for a closer look

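Of the 48 gene lists, 4 had medians of opposite sign and at least 0.5 in size in PC-3 cells and, on both scales used, in 22Rv1 cells. For the FoxO list the median log2 ratio (shTNFRSF13B minus empty vector) was 0.792 in PC-3. In 22Rv1 it was -0.62 once the 4 arrays had been quantile normalized, and -0.51 after the median of all genes was subtracted from the deposited value. The deposited 22Rv1 median itself was 0.70, of the same sign as in PC-3. For hyaluronan and proteoglycans the PC-3 median was 0.576, and the 22Rv1 values on these scales were -0.95 and -0.71. The deposited 22Rv1 median of this list was 0.50, also of the same sign as in PC-3. For the G2/M and mitosis list the PC-3 median was -1.78, beside 1.497 and 1.84 for 22Rv1. For the G1/S and DNA replication list it was -1.33, beside 1.51 and 1.87 for 22Rv1. With 1 array per condition none of these differences was tested. The 22Rv1 arrays differed in their overall level (median ratio 1.22 as deposited), and its part in these values was not tested.

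Transcript probe sets with no listed gene symbol, which enter no comparison above, also held large ratios in PC-3 cells. Of 3188 such probe sets 267 passed 2-fold (8.38%, exact 95% binomial interval 7.44% to 9.39%, counting error only), 139 higher and 128 lower with shTNFRSF13B, against 29.1% of the negative control probe sets and 10.4% of the named genes.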

How the results depend on the processing

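Of the 273 named genes none past 2-fold changed sign under 8 alternatives. Of their 2180 values 20 moved, 19 of them by raising dim values to the floor. The overall counts were 2520 higher and 2411 lower at 1.5-fold, and 379 higher and 249 lower at 3-fold. With the array medians made equal, which lowers every log2 ratio by 0.14 and turns the sign of 10 list medians that lay close to 0, the median was -1.23 for the ATF4 list, 0.29 for chemokines and interleukins, 1.24 for HLA class I, 0.66 for FoxO and 1.74 for the late interferon genes. Without genes dim on both arrays, it was 0.85 for chemokines and interleukins, 1.69 for HLA class I and 2.33 for the late interferon genes. With dim values raised to the floor, chemokines and interleukins had a median of 0.22 with 5 genes higher, and at 1.5-fold 19 were higher. At 3-fold, 12 ATF4 genes were lower and 9 FoxO genes higher. Leaving out genes shared with another list, an alternative chosen after seeing the data, gave 0.65 for FoxO, and leaving out the interferon-stimulated genes gave 1.25 for the late interferon list. The cause of these shifts was not tested where the setting itself does not fix it. No paired analysis was possible because each condition had 1 array, and no replicate could be left out. Single-gene ratios are limited by noise: 29.1% of negative control probe sets passed 2-fold, and 5556 genes were dim on both arrays.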

Other observations

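Families of related genes, picked after their values had been seen, were described beside the lists. Of 5 YPEL genes, a conserved family named after the fly gene yippee, 3 were at least 2-fold higher with shTNFRSF13B and all 5 had a ratio over 0 (median 1.24). Of 4 phospholipid scramblases (PLSCR) 3 were higher, with a largest log2 ratio of 3.89. Of 10 butyrophilins (BTN) 4 were higher and none lower, and of 9 cystatins (CST) 4 were higher. Mitochondrial ribosomal proteins leaned the other way: 57 of 74 had a ratio under 0 and 5 were at least 2-fold lower (median -0.35). The 492 zinc finger genes (ZNF) had a median of 0.10, with 20 higher and 10 lower, and the 363 solute carriers (SLC) a median of 0.01, with 23 higher and 17 lower. The ZNF and SLC counts lay near or under the shares over all genes, 5.76% higher and 4.69% lower. Over all genes, 795 higher and 557 lower ones stood in none of the lists and were no histone genes.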
